A study of Sus scrofa with 41 samples.

Results

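Landrace pigs at both ends of the feed conversion ratio (FCR, the feed eaten per unit of weight gained) were compared for gene expression in the psoas major, the tenderloin muscle along the lumbar spine. The high FCR group held the 9 Landrace pigs with an FCR of 2.14 or more, and the low FCR group held the 8 with an FCR of 2.05 or less, out of 28 Landrace pigs and 41 pigs in all. The nearest pigs left between the groups had an FCR of 2.13 and 2.06. All 17 were uncastrated Danbred Landrace males that ate ad libitum up to about 100 kg and whose intake and growth were recorded from about 28 kg. The muscle was taken right after slaughter into RNAlater, at 149 to 162 days of age in the high group and 147 to 158 days in the low group. The study's methods word FCR as gain over feed, but values near 2 are feed over gain, so that a high FCR is a less efficient pig. Mean FCR was 2.186 ± 0.0403 (SD, n = 9) in the high group and 2.005 ± 0.0441 (SD, n = 8) in the low group.

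Muscle is the largest tissue of the growing pig and spends feed energy on contraction, on making and breaking down protein and on heat. Its fast fibres rely on glycolysis, its slow fibres on mitochondrial respiration, and fat cells, connective tissue, vessels and leukocytes lie between them. Mitochondria make most of the ATP, from subunits encoded partly in the nucleus and partly in their own genome, and ribosomes and proteasomes set how fast protein is built and removed. In whole muscle, fewer cells of a type and less RNA per cell cannot be told apart.

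The 17 libraries held 23916174 to 25954816 counts on genes, which was 75.5 to 80.9% of the counted read pairs. ACTA1, the actin of skeletal muscle, was at 74010 to 133100 CPM (counts scaled to a common library size) and CKM, the muscle creatine kinase, at 19540 to 36920 CPM, while LEP, made by fat cells, was at most 0.236 CPM. Mitochondrially encoded counts were at 15.0 ± 2.68% of all counts (SD, n = 9) against 12.2 ± 2.53% (SD, n = 8), with ranges that overlapped. The exact permutation p was 0.0466 (two-sided), and the difference did not pass after adjustment over 5 measures (adjusted exact permutation p = 0.233). The other 4 measures had adjusted exact permutation p-values of 0.341 for RNA integrity number (RIN, 7.80 against 8.00), 0.257 for age (156 against 153 days), 0.341 for total count and 0.255 for the share on genes. Slaughter batch 2 held 4 pigs of each group, batch 3 held 2 of each, batch 4 held 1 of each and batch 5 held 2 high pigs and 1 low pig.

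No gene passed the test between the groups. Of 10879 genes tested with edgeR's quasi-likelihood test and RIN as a covariate, 0 (0%) had a false discovery rate (FDR) under 0.1, and the lowest adjusted p was 0.9997. At an unadjusted p under 0.05 there were 304 genes (2.79%), of which 173 (1.59%) were at a higher level in high FCR pigs and 131 (1.20%) at a lower level, where an even spread of p-values gives 544. With library size as the only scaling, 92.6% of 460 such genes were on the higher side instead. DESeq2 and limma with voom also called 0 genes at that FDR, with 342 and 280 genes at an unadjusted p under 0.05. The log2 difference (high minus low) was above 0 in 52.7% of genes, with a median of 0.0080, and 5% of genes lay below -0.25 and 5% above 0.32. The median standard error was 0.14, and only 32 genes differed by more than 2-fold in either direction. There were 0 genes (0%) whose CPM ranges did not overlap between the groups. In the same model 22.2% of genes, 2419 in number, changed with RIN at an FDR under 0.1. All log2 differences below are from this model, and since none passed the FDR threshold they are given as values with their unadjusted p.

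**Figure D1:**
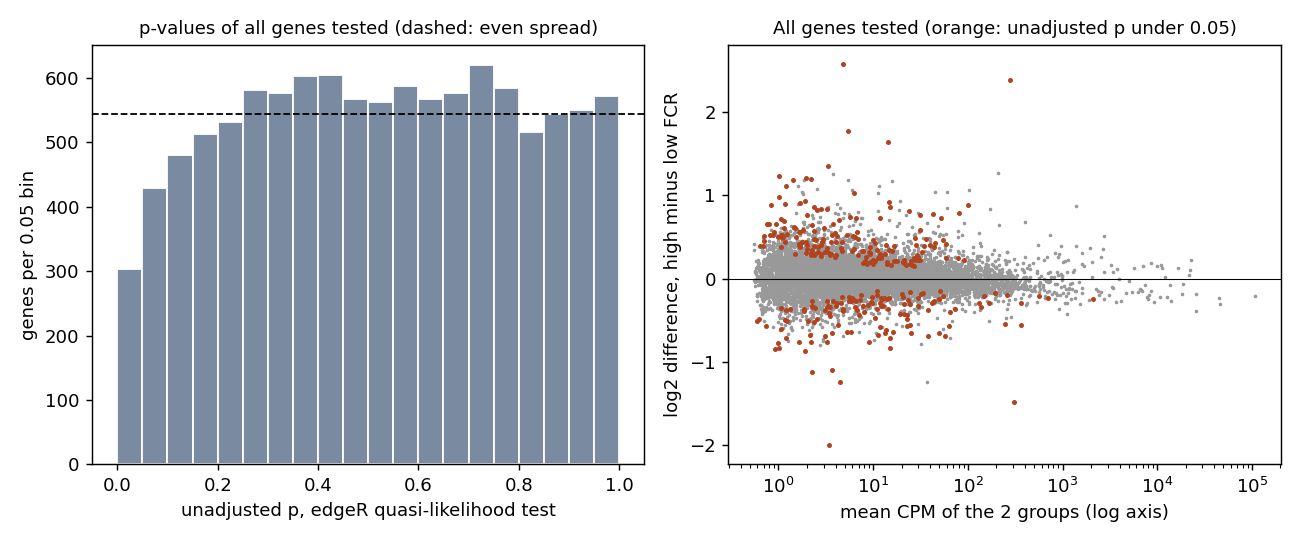
Left, number of genes per bin of unadjusted p (0.05 wide) for all 10879 genes, with the even spread as a dashed line. The lowest bin holds 304 genes against 544 for an even spread. Right, log2 difference (high minus low FCR) against mean CPM on a log axis, 1 point per gene, with the 304 genes in orange on both sides of 0.

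The genes were then read by function, over 53 lists of pathways, complexes, families and cell types. In none of them did a member pass the FDR threshold. The lists with the lowest medians held immune genes, fast fibre genes and glycolytic enzymes, and those with the highest held slow fibre, immediate-early, fat synthesis, Schwann cell, adipocyte and collagen genes. Each median was set beside the 0.0080 of all genes, and members of a list share cells and control, so their counts are not independent. Many of the medians moved with 1 pig or with the model, so the larger ones are given with their range over 34 alternative settings and the setting at each end. Library size as the only scaling is not in these ranges, since it moved the median of all genes to 0.103. In 17 of the 53 lists the median from the model and the difference in mean log2 level between the groups, which has no adjustment for RIN, had opposite signs.

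**Figure D2:**
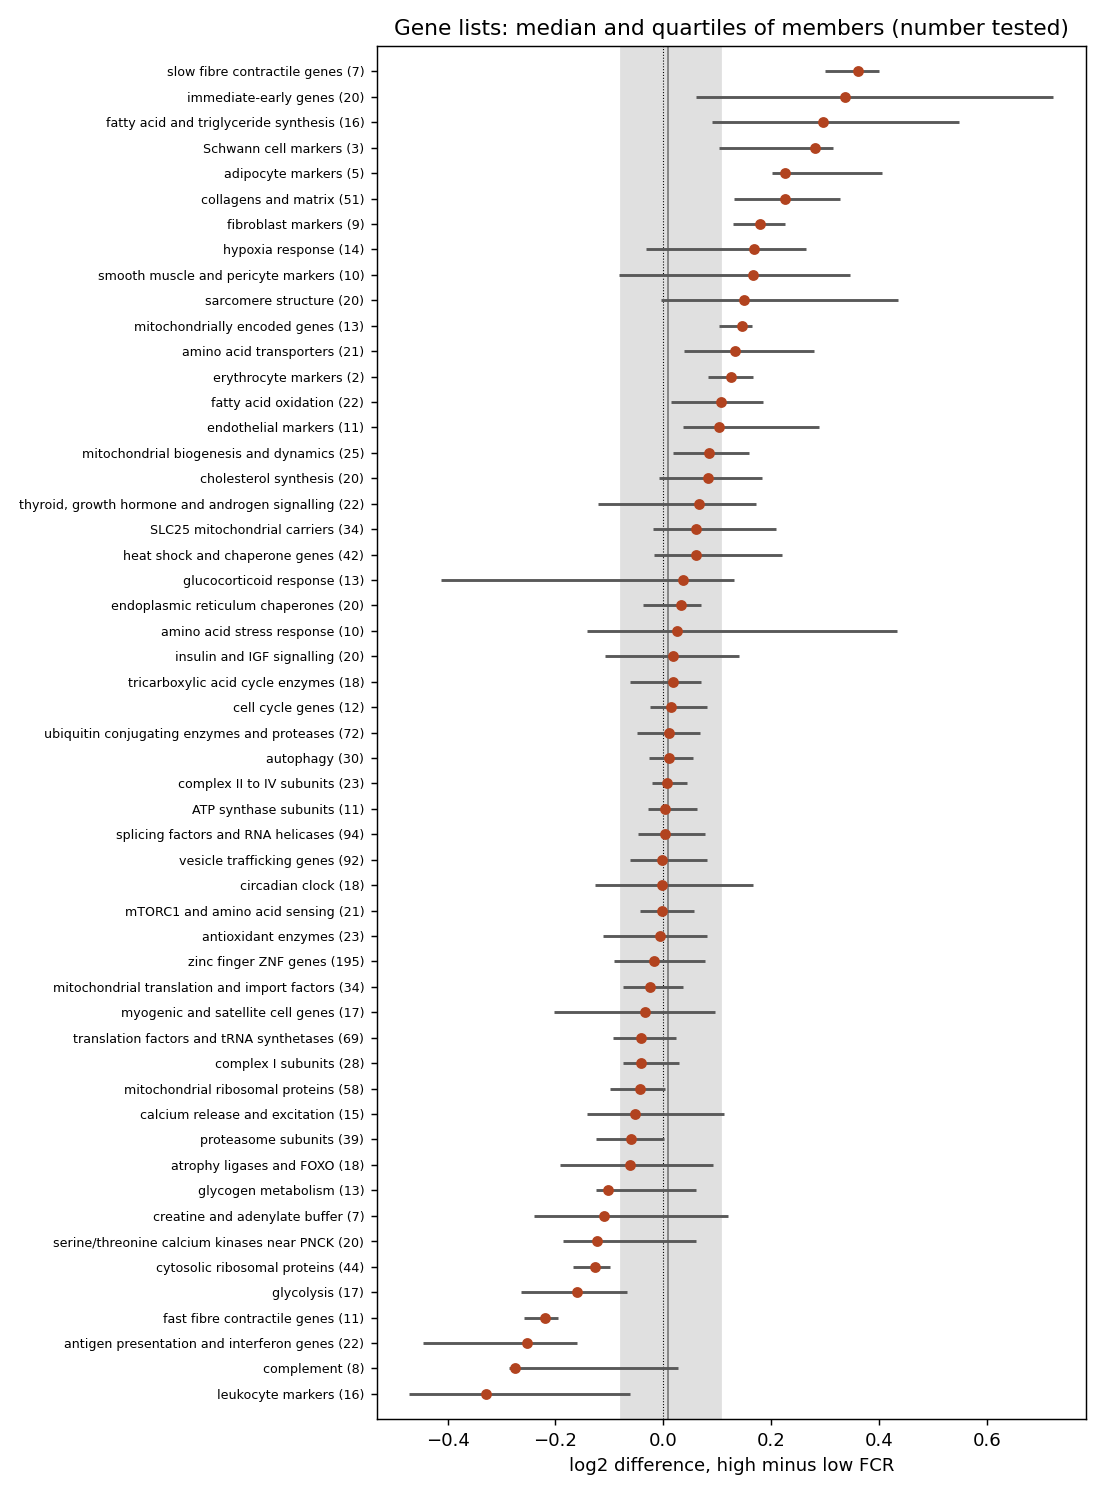
Median (point) and quartiles (bar) of the log2 difference, high minus low FCR, for the tested members of each of 53 gene lists, with the number tested in brackets. The grey band marks the quartiles of all 10879 genes. The medians run from -0.33 for leukocyte markers to 0.36 for slow fibre contractile genes.

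Antigen presentation and interferon genes were at a lower level in high FCR pigs for 21 of 22 members, with a median log2 difference of -0.25 and 2 members at an unadjusted p under 0.05. B2M, the listed SLA class I genes and SLA-DRA, SLA-DRB1 and SLA-DQA1 of class II, which present the peptides themselves, were among 12 listed symbols that were not matched to a gene and were not analysed here. The summed level of the 24 matched genes of the list was 176, 294 and 334 CPM (lowest, median and highest) in high FCR pigs and 246, 312 and 688 CPM in low FCR pigs. The ranges overlapped, the mean log2 level of the list was above the low group's median in only 1 of 9 high pigs, and low replicate 3 stood highest. TAP1, which carries peptides into the endoplasmic reticulum for class I molecules, was at 4.62, 8.51 and 16.6 CPM in the high group and 9.65, 13.7 and 33.4 CPM in the low group, a log2 difference of -0.65 ± 0.24 (SE, p = 0.0137). PSMB8, a subunit of the immunoproteasome, was at -0.65 ± 0.31 (p = 0.0478) and lies 1105 bases from TAP1 on chromosome 7. Without low replicate 3 the differences were -0.43 for TAP1 and -0.28 for PSMB8. Leukocyte markers had 13 of 16 members lower in the high group (median -0.33) and complement 6 of 8 (median -0.28), with no member of either under 0.05. PTPRC, the pan-leukocyte phosphatase CD45, spanned 0.795 to 4.07 CPM in high and 1.48 to 7.58 CPM in low FCR pigs. The difference in mean log2 level over the leukocyte list, -0.37, was smaller than its SD between pigs of a group, 0.53, as it was for the antigen presentation list (-0.39 against 0.42). Over the alternatives the antigen presentation median ran from -0.47 (with age and batch added to the model) to -0.14 (without low replicate 3) and the leukocyte median from -0.54 to -0.14 in the same settings. Complement ran from -0.39 (without high replicate 3) to -0.050 (without the pigs of RIN under 7.5), and it was at -0.081 without low replicate 7.

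Fast fibre contractile genes were at a lower level in high FCR pigs for all 11 members tested, with a median of -0.22, and slow fibre genes were at a higher level for all 7, with a median of 0.36. TNNT3, the fast troponin T, was at 6155, 10901 and 16146 CPM in the high group and 10639, 12175 and 19292 CPM in the low group (log2 difference -0.22 ± 0.16, p = 0.186). MYL2, the slow regulatory light chain, was at 989, 1675 and 6023 CPM in the high group and 500, 1800 and 2366 CPM in the low group (0.36 ± 0.35, p = 0.316). The high group's median of MYL2 thus lay below the low group's, and high replicate 5 alone was above every low pig by more than 2-fold. The median of the slow list ran from -0.098 (with age and batch added to the model) to 0.59 (within slaughter batch 2), and it was 0.015 without high replicate 5. The fast list ran from -0.32 under stricter FCR limits (at least 2.17 and at most 2.03) to -0.090 with age and batch, and it was at -0.13 without high replicate 5. MYH7, MYH1, MYH2 and MYH4, the myosin heavy chains that define the fibre types, were not matched to a gene by symbol and were not analysed here. Sarcomere structure genes were at a higher level for 15 of 20 (median 0.15), with a range from -0.012 (without the pigs of RIN under 7.5) to 0.30 (stricter FCR limits) and 0.037 without high replicate 5.

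Glycolysis genes were at a lower level in high FCR pigs for 14 of 17 members (median -0.16), and the mean log2 level of the list was above the low group's median in 1 of 9 high pigs. The median ran from -0.36 under the stricter FCR limits to -0.11 without high replicate 5. GAPDH, the glyceraldehyde phosphate dehydrogenase, was at 21292, 42263 and 53153 CPM in the high group and 41687, 47438 and 67698 CPM in the low group (-0.31 ± 0.16, p = 0.068). A pair of kinase isoforms that set the level of fructose 2,6-bisphosphate pointed opposite ways. PFKFB3 (ENSSSCG00000011133, chr10:64776315-64859118) was at 11.09, 23.8 and 644 CPM in high and 46.1, 204 and 1865 CPM in low FCR pigs, a log2 difference of -1.49 ± 0.66 (p = 0.0369). Its level moved with the slaughter batch, since in batch 2 the range was 116 to 644 CPM in the high and 107 to 1865 CPM in the low group, while the other high pigs were at 11.09 to 23.8 CPM and the other low pigs at 46.1 to 206 CPM. Within batch 2 the difference was -1.54, without high replicate 3 it was -2.24, and the part of the batch in the result was not tested. PFKFB2 was at a median of 0.972 against 0.560 CPM (0.66 ± 0.31, p = 0.0498), and its annotation overlaps YOD1 by 104 bases on chromosome 9, so that read pairs there cannot be told apart. Glycogen metabolism had 9 of 13 members lower (median -0.10), with -0.17 under the stricter limits, -0.027 with age and batch and -0.032 without high replicate 5. The creatine and adenylate buffer had 4 of 7 lower (median -0.11), with -0.19 under the stricter limits, -0.012 without RIN in the model and -0.047 without low replicate 5.

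Mitochondrially encoded genes were at a higher level in high FCR pigs for all 13 members, with a median of 0.15 and no member at an unadjusted p under 0.05. COX3, a subunit of cytochrome c oxidase, was at 14225, 25108 and 33702 CPM in the high group and 13171, 18941 and 32025 CPM in the low group (0.10 ± 0.14, p = 0.461). The list's mean log2 level was above the low group's median in 8 of 9 high pigs. The median ran from 0.044 under the stricter FCR limits to 0.27 without RIN in the model, and it was 0.079 without high replicate 1 and 0.055 within slaughter batch 2. The nuclear partners of these genes lay near the median of all genes, with complex I at -0.042 (9 of 28 above 0), complexes II to IV at 0.0065 (13 of 23), ATP synthase at 0.0028 (6 of 11), mitochondrial ribosomal proteins at -0.043 (16 of 58), mitochondrial translation and import factors at -0.024 (13 of 34) and the tricarboxylic acid cycle at 0.018 (10 of 18). SIRT3, the main deacetylase of the mitochondrial matrix, was at 4.25, 6.01 and 9.44 CPM in the high group and 3.08, 4.15 and 6.10 CPM in the low group, and all 9 high pigs were above the low median (0.53 ± 0.19, p = 0.0113). It belongs to the mitochondrial biogenesis and dynamics list, where 20 of 25 members were above 0 (median 0.085, range 0.022 to 0.12, and 0.046 without high replicate 5). The SLC25 carriers of the inner membrane were above 0 for 23 of 34 (median 0.061, range -0.011 to 0.13, and 0.016 without high replicate 6), with SLC25A27 at 0.50 (p = 0.029) and SLC25A17 at -0.39 (p = 0.0359). Antioxidant enzymes had a median of -0.0068 with 11 of 23 above 0.

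Fatty acid and triglyceride synthesis was at a higher level in high FCR pigs for 14 of 16 members (median 0.30), 2 of them at an unadjusted p under 0.05. The median ran from 0.084 (age and batch in the model) to 0.36 (without high replicate 7), and it was 0.18 without high replicate 5. FASN, the fatty acid synthase, was at 7.32, 10.2 and 66.1 CPM in the high group and 6.68, 9.70 and 19.2 CPM in the low group (0.92 ± 0.36, p = 0.021). The medians of FASN were close, and without high replicate 2 its difference was 0.35. DGAT1, which adds the last acyl chain of a triglyceride, was at 0.41 ± 0.16 (p = 0.0179), with 8 of 9 high pigs above the low median. ADIPOQ (adiponectin, ENSSSCG00000039103, chr13:124633906-124646237), a hormone of fat cells, was at 0.704, 2.22 and 46.2 CPM in high and 0.531, 1.17 and 2.96 CPM in low FCR pigs. Its log2 difference of 2.58 ± 0.73 (p = 0.00248) was the largest among the named genes, and 3 high pigs were above all low pigs, at 7.01, 12.7 and 46.2 CPM. Without high replicate 2, the pig at 46.2 CPM, it was 1.54. The adipocyte markers PLIN1 and CIDEC were below the filter and reached 13.1 and 5.80 CPM in the high group against 1.28 and 0.801 CPM in the low group, while FABP4 was at a median of 30.2 against 32.9 CPM. All 5 adipocyte markers tested were above 0, with a median of 0.23 that ran from -0.0053 without high replicate 2 to 0.83 within slaughter batch 2, and it was 0.48 without low replicate 7. The summed level of the 11 matched adipocyte markers, tested or not, was 251 to 466.1 CPM against 201 to 467.2 CPM. Their part in the fat synthesis values was not tested. Cholesterol synthesis was above 0 for 15 of 20 (median 0.083, SQLE 0.65, p = 0.0333) and fatty acid oxidation for 17 of 22 (median 0.11). The median of fatty acid oxidation ran from 0.0022 (age added to the model) to 0.25 (within slaughter batch 2), and it was 0.0056 without high replicate 5 and 0.21 without low replicate 7. Cholesterol synthesis ran from 0.00025 within slaughter batch 2 to 0.12 without low replicate 3, and it was at 0.032 without low replicate 7.

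**Figure D3:**
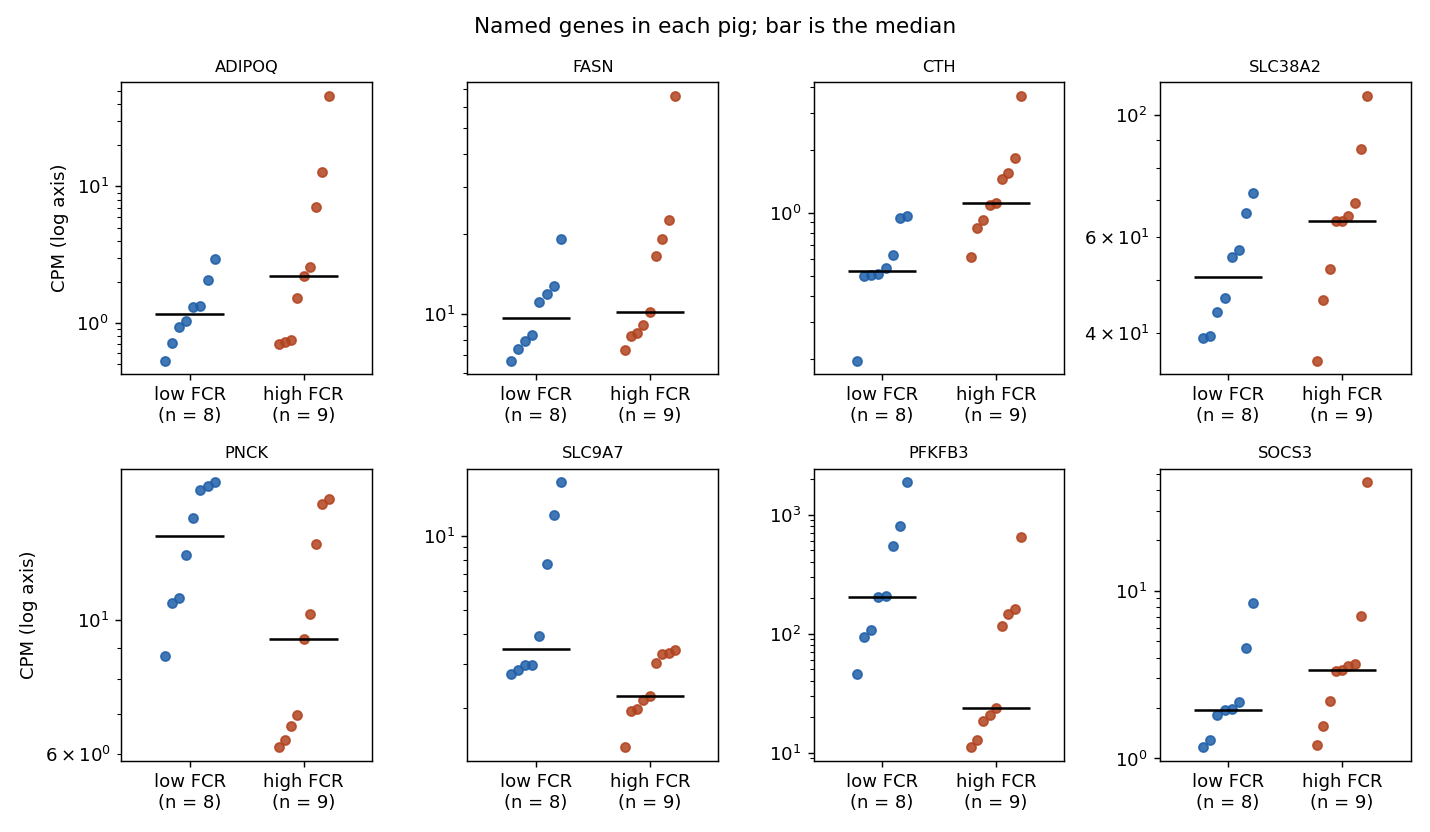
CPM (log axis) of 8 named genes in each of the 8 low FCR and 9 high FCR pigs, 1 point per pig with the group median as a bar. The groups overlap in every panel, and in ADIPOQ, FASN and SOCS3 1 high pig stands far above the others, at 46.2, 66.1 and 44.3 CPM.

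Muscle growth draws on amino acids from feed protein, which are carried into the fibre and made or broken down there. SLC38A2 (ENSSSCG00000000808, chr5:77113491-77127715), a sodium-coupled carrier of neutral amino acids, was at 35.7, 64.1 and 109 CPM in the high group and 39.2, 50.7 and 72.0 CPM in the low group (0.42 ± 0.19, p = 0.0404). The study lists SLC38A2 as up for both breeds together, from pigs that include those of both groups here. The direction of SLC38A2 is therefore not independent evidence. SLC38A2 was above the low median in 7 of 9 high pigs. The amino acid transporters as a list were above 0 for 16 of 21 (median 0.13, from 0.027 with age and batch in the model to 0.21 without high replicate 7). CTH (ENSSSCG00000003789, chr6:142454922-142486352), which makes cysteine from cystathionine, was at 0.612, 1.11 and 3.64 CPM against 0.196, 0.525 and 0.961 CPM, with all 9 high pigs above the low median (1.23 ± 0.36, p = 0.00316). These CPM rest on 5 to 103 counts per pig. ASNS, the asparagine synthetase, pointed the other way at 7.18, 18.7 and 34.5 CPM against 18.3, 30.6 and 40.9 CPM (-0.65 ± 0.26, p = 0.0225). ADSL, an enzyme of purine synthesis, was at 50.3, 64.5 and 77.1 CPM against 63.5, 81.8 and 99.6 CPM, and none of the 9 high pigs was above the low median (-0.37 ± 0.10, p = 0.00256). The amino acid stress response list had 6 of 10 members above 0 (median 0.025).

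Genes that build and remove protein showed small values. Cytosolic ribosomal proteins were below 0 for 43 of 44 members, with a median of -0.13 and RPL10 at -0.23 ± 0.11 (p = 0.0432). The mean log2 level of this list differed between groups by -0.050, against an SD between pigs of 0.24. The median ran from -0.18 without the pigs of RIN under 7.5 to -0.035 without RIN in the model. Near-identical copies of ribosomal protein genes may have lost read pairs. Translation factors and tRNA synthetases had 21 of 69 above 0 (median -0.041), with EIF1AD at 0.23 (p = 0.0123) and EIF2B3 at -0.28 (p = 0.044). Proteasome subunits had 10 of 39 above 0 (median -0.060), with the activator subunit PSME2 at -0.57 (p = 0.0173). Ubiquitin conjugating enzymes and proteases had 42 of 72 (median 0.011), with USP8 at 0.17 (p = 0.0226), USP31 at 0.35 (p = 0.037), UBE2Z at 0.19 (p = 0.0492) and USP18 at -0.72 (p = 0.0444), a value that was -0.21 without low replicate 7. Atrophy ligases and FOXO genes had 7 of 18 above 0 (median -0.062), autophagy 18 of 30 (median 0.010, WIPI1 0.48, p = 0.0339) and the mTORC1 list 10 of 21 (median -0.0027). MSTN (myostatin), the secreted brake on muscle growth, was at 3.43, 9.83 and 19.4 CPM in high and 7.65, 15.4 and 33.1 CPM in low FCR pigs, with 1 of 9 high pigs above the low median (-0.62 ± 0.29, p = 0.0431). Without low replicate 7 the difference of MSTN was -0.18. Myogenic and satellite cell genes had 7 of 17 above 0 (median -0.035).

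In signalling and stress lists the values also pointed both ways. IRS1, the docking protein of the insulin receptor, was at 73.1, 126 and 155 CPM in the high group and 120, 142 and 204 CPM in the low group (-0.34 ± 0.16, p = 0.0423), within an insulin and IGF list of median 0.018 (10 of 20 above 0). SOCS3, a feedback inhibitor of cytokine receptors, was at 1.21, 3.36 and 44.3 CPM against 1.16, 1.96 and 8.48 CPM (1.78 ± 0.60, p = 0.00817), and it was 0.57 without high replicate 3. The thyroid, growth hormone and androgen list it belongs to had 12 of 22 above 0 (median 0.066). Immediate-early genes were above 0 for 16 of 20 (median 0.34), with IER3 at 0.83 ± 0.30 (p = 0.014), and heat shock and chaperone genes for 30 of 42 (median 0.060), with DNAJB1 at 0.58 ± 0.24 (p = 0.0258). The immediate-early median ran from 0.17 without the pigs of RIN under 7.5 to 0.61 without low replicate 6, and it was 0.19 without low replicate 7. The heat shock median ran from -0.058 without the pigs of RIN under 7.5 to 0.10 without low replicate 6, and it was 0.014 without low replicate 7. The glucocorticoid response had CEBPD at -0.66 (p = 0.0191), GADD45A at -0.84 (p = 0.0401) and ERRFI1 at 0.33 (p = 0.0363), with 8 of 13 above 0 and a median of 0.037 although the mean log2 level of the list differed by -0.25. CEBPD ends 455 bases before SPIDR on chromosome 4, which was at -0.56 ± 0.19 (p = 0.00951). Hypoxia genes were above 0 for 9 of 14 (median 0.17, range 0.062 to 0.19, and 0.089 without high replicate 5), although their mean log2 level differed by -0.075, with P4HA1 at 0.26 (p = 0.0481), ERO1A at 0.16 (p = 0.0478) and, on the lower side and larger, PFKFB3 at -1.49 (p = 0.0369). The circadian clock had 9 of 18 above 0 (median -0.0026) with BHLHE40 at 0.89 (p = 0.0178), endoplasmic reticulum chaperones 11 of 20 (median 0.033), calcium release and excitation 6 of 15 (median -0.052) and cell cycle genes 7 of 12 (median 0.014).

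**Figure D4:**
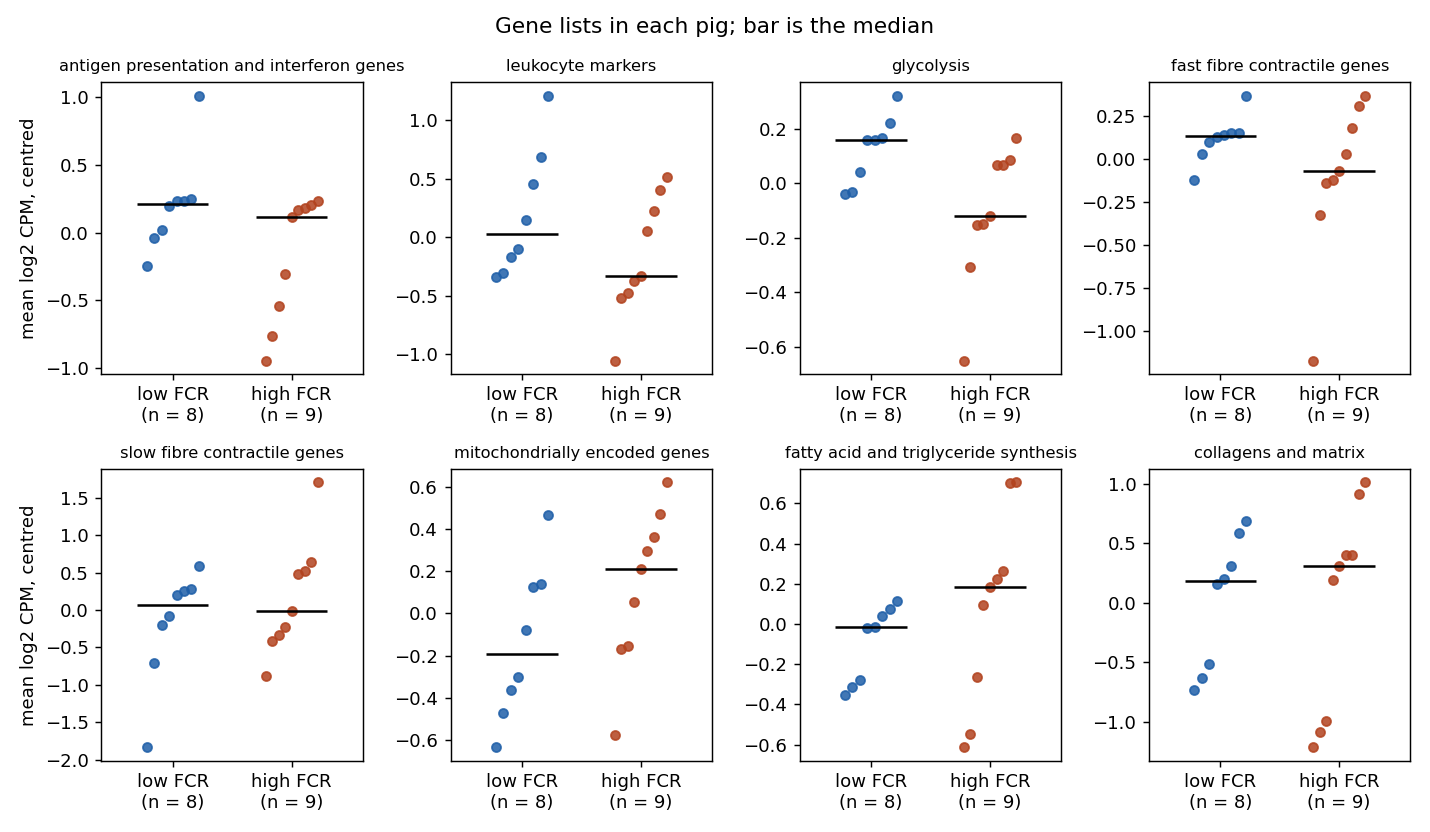
Mean log2 CPM of the tested members of 8 gene lists, centred on the mean of the 17 pigs, for the 8 low FCR and 9 high FCR pigs, 1 point per pig with the group median as a bar. The groups overlap in every panel, and 1 of 9 high pigs is above the low median for the antigen presentation and for the glycolysis genes.

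Connective tissue and vessel genes had medians above 0 that depended on the model, while their mean log2 levels differed little between the groups. Collagens and matrix genes were above 0 for 46 of 51 (median 0.23), fibroblast markers for 7 of 9 (median 0.18), endothelial markers for 10 of 11 (median 0.10, ENG 0.40, p = 0.037) and smooth muscle and pericyte markers for 7 of 10 (median 0.17). The mean log2 level of these 4 lists differed between the groups by -0.014, -0.066, 0.041 and -0.019, with SDs between pigs of 0.73, 0.75, 0.48 and 0.45. With age and batch added the medians were -0.14, -0.19, -0.27 and -0.096, the lowest of the alternatives. The highest were 0.54, 0.56 and 0.30 for collagens, fibroblast and smooth muscle markers under the stricter FCR limits and 0.31 for endothelial markers without the pigs of RIN under 7.5. Without high replicate 3 the collagens were at 0.088 and the fibroblast markers at -0.030, and without high replicate 5 the endothelial markers were at -0.016 and the smooth muscle and pericyte markers at 0.019. COL1A1, a chain of type I collagen, was at 237, 449 and 9522 CPM in the high group and 186, 488 and 983 CPM in the low group (0.20 ± 0.72, p = 0.781), and high replicate 8 alone was far above the rest. Schwann cell markers had 2 of 3 above 0 (median 0.28, range 0.074 to 0.43, and 0.10 without high replicate 4) and erythrocyte markers 2 of 2 (median 0.12, range -0.47 to 0.51, and -0.38 without high replicate 5).

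PNCK (ENSSSCG00000012773, chrX:124425867-124430000), a calcium and calmodulin dependent kinase, is a gene the study lists for Landrace from pigs that include these 17, so its direction here is not independent evidence. It was at 6.15, 9.30 and 15.9 CPM in high and 8.72, 13.8 and 17.0 CPM in low FCR pigs, and 2 of 9 high pigs were above the low median. Its log2 difference was -0.58 ± 0.20 (95% interval -1.01 to -0.15, p = 0.0108), and it was below 0 in all 35 alternative settings. In the other 11 Landrace pigs its slope on FCR, scaled to the difference of 0.181 between the group means, was -0.13 ± 0.69 (SE), and -0.80 ± 0.55 without a library that stood apart (replicate 10, described with these pigs at the end). Over all 41 pigs the slope on FCR in Duroc minus that in Landrace was 0.91 ± 0.24 (SE, p = 0.000447), with an edgeR adjusted p of 0.436, and without that library and 1 of Duroc it was 0.97 ± 0.23 with an adjusted p of 0.259. The study lists PNCK for Landrace and not for Duroc from these same 41 pigs, so this difference is not independent evidence either. No gene (0% of 11146) had an FDR under 0.1 for that difference between breeds, and 1101 had an unadjusted p under 0.05. A list of PNCK with other calcium and calmodulin dependent kinases, calmodulin, calcineurin and its NFAT targets was below 0 for 14 of 20 members, PNCK included (median -0.12, range -0.14 to -0.045). MTFR1, a regulator of mitochondrial fission, was at 0.32 ± 0.19 (p = 0.116), MGAT4A, a glycosyltransferase of the Golgi, at -0.14 ± 0.079 (p = 0.091) and MRPS11, a mitochondrial ribosomal protein, at -0.073 ± 0.10 (p = 0.481). For both breeds together the study lists MTFR1 and MGAT4A as down and MRPS11 as up. The signs of MTFR1 and MRPS11 here were thus opposite to the study's, and that of MGAT4A was the same. The study's pigs include those of both groups here, so the shared sign of MGAT4A is not independent evidence.

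The genes of smallest p, whatever their function, lay on both sides. RIBC1 was at 0.618, 0.972 and 1.28 CPM in the high group and 0.481, 0.633 and 0.900 CPM in the low group (0.65 ± 0.18, p = 0.00172). The other genes on the higher side were ETV1 (0.98), ADGRG6 (0.86), SPRY4 (0.84), YOD1 (0.72), ZC3H12A (0.65), AACS (0.57), MYO6 (0.55) and GLYR1 (0.26), with p from 0.00377 to 0.00644. All 9 high pigs were above the low median for MYO6, an unconventional myosin, and for ADGRG6. On the lower side, ZNF398 had the smallest p of all, at 7.03, 7.94 and 8.46 CPM in the high group and 8.13, 9.15 and 11.8 CPM in the low group (-0.32 ± 0.087, p = 0.00168). No high pig was above the low median of ZNF398, although the zinc finger genes as a family had 88 of 195 above 0 and a median of -0.017. Other members at an unadjusted p under 0.05 were ZNF503 (0.40) and ZNF304 (0.40) on the higher and ZNF23 (-0.37) and ZNF10 (-0.27) on the lower side. SLC9A7, a sodium and proton exchanger of the Golgi, was at 1.38, 2.22 and 3.44 CPM against 2.75, 3.45 and 16.6 CPM (-1.24 ± 0.38, p = 0.00453), with low replicates 5, 8 and 6 at 16.6, 12.2 and 7.69 CPM and the other low pigs at 2.75 to 3.92 CPM. The rest were LYVE1 (-0.87), a receptor of lymphatic endothelium, KIF2C (-0.85), ITGB7 (-0.84), CCDC167 (-0.51), METTL23 (-0.45), CTNNA3 (-0.41), CTNNBL1 (-0.29) and CCDC32 (-0.27). Splicing factors and RNA helicases had 47 of 94 above 0 (median 0.0024), with SRSF6 at 0.22 and DDX54 at -0.18, and vesicle trafficking genes 45 of 92 (median -0.0016).

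Pigs outside both groups were compared for direction. A library in each of these sets stood apart. Replicate 10 of the other 11 Landrace pigs (FCR 2.13, the highest of them together with 1 more pig) had 29.4% of counts on mitochondrially encoded genes against 10.9 to 20.5% in the others, and 69.9% of read pairs on genes against 75.6 to 80.1%. Its RIN of 6.6 did not set it apart, since replicate 1 of these pigs was at 6.5. Duroc replicate 10 (FCR 1.85) had an RIN of 7 and a mitochondrially encoded share of 30.8% against 8.495 to 20.2%. Values are therefore given with and without these libraries. Of the 277 genes at an unadjusted p under 0.05 that were also tested in the other 11 Landrace pigs, 138 (49.8%) had a slope on FCR of the same sign, against 51.9% of all 10295 genes (50.4% against 53.1% without replicate 10). In the 13 Duroc pigs 177 of 288 such genes (61.5%) had the same sign, against 56.7% of 10410 genes (64.5% against 56.9% without replicate 10). These shares are descriptions, since genes are not independent. The other 11 Landrace pigs spanned an FCR of only 2.06 to 2.13, while their slopes were scaled to a difference of 0.181. That is wider than their whole range, so these slopes are extrapolated and imprecise, with an SE of 0.69 for PNCK. The list medians below carry no SE, and their size cannot be set against the high minus low values. Scaled slopes on FCR were also read over the gene lists plotted by pig, with complement, sarcomere structure, immediate-early, adipocyte and Schwann cell genes. In the other 11 Landrace pigs the median had the sign of the high minus low value with and without replicate 10 for antigen presentation (-0.38 and -0.66), glycolysis (-0.29 and -0.26), fast fibre (-0.22 and -0.32) and fat synthesis genes (0.62 and 0.67). It had the opposite sign both ways for leukocyte markers (1.09 and 1.08), complement (0.24 and 0.11), slow fibre genes (-0.28 and -0.55) and sarcomere structure (-1.07 and -0.62). The sign turned with that 1 library for mitochondrially encoded genes, from 0.38 to -0.14 without it, and for collagens, from -0.046 to 0.40. It also turned for Schwann cell markers, from -0.59 to 0.10. Adipocyte markers had the same sign both ways (2.28 and 2.57) and immediate-early genes the opposite sign both ways (-0.71 and -0.20). In the 13 Duroc pigs the median had the same sign with and without replicate 10 for glycolysis (-0.0081 and -0.050), fast fibre (-0.16 and -0.14), fat synthesis (0.38 and 0.27) and collagen genes (0.58 and 0.69). The opposite sign was found there both ways for antigen presentation (0.20 and 0.13), leukocyte markers (0.18 and 0.10), complement (0.24 and 0.37), slow fibre (-0.18 and -0.34), mitochondrially encoded (-0.30 and -0.25) and sarcomere genes (-0.12 and -0.24). Immediate-early genes (0.18 and 0.23) and Schwann cell markers (0.48 and 0.40) had the same sign in Duroc both ways. That of adipocyte markers turned, from -0.076 to 0.030 without replicate 10.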

How the data were processed

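The authors had the RNA extracted and sequenced by BGI, on a BGISEQ-500 as 100 bp read pairs. Per the labels and the methods, the pairs were trimmed with Trimmomatic 0.39 and aligned by the authors to Sscrofa11.1 with Ensembl 96 by STAR 2.7.1a. The deposited values are whole counts of read pairs per gene for each pig, neither normalized nor filtered. The unstranded column was used, so overlapping and antisense genes cannot be told apart. FCR, RIN, age and batch came from the labels. Symbols were matched for 14857 of 25880 genes, and positions are from RefSeq on Sscrofa11.1.

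The main fit was edgeR 4.0.16 (quasi-likelihood, legacy form, TMM, filterByExpr with a minimum count of 10 and total of 15) in R 4.3.3, with RIN and group over 17 pigs. DESeq2 1.42.0 and limma 3.58.1 with voom were alternatives, with scaling, filter, covariate, FCR as a number and left-out pigs, 35 settings in all. FDR is the Benjamini-Hochberg value with a threshold of 0.1. The libraries held 23916174 to 25954816 counts on genes, CPM used the TMM-scaled sizes over the tested genes, and counting error is largest in genes of few counts. The lowest chi-squared per degree of freedom over 136 pairs of libraries was 22.65, so every pair differed beyond counting noise. Balance of the groups was tested by all 24310 permutations in Python 3.11.15 with NumPy 2.4.6 and pandas 2.3.3, and plots used matplotlib 3.10.9. The fits were tested on simulated counts.

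Named genes were, by rule, the 12 of smallest p in each direction, list members at an unadjusted p under 0.05 (at most 3 in each direction) or of highest CPM, and 5 genes the study lists. Some genes that the rule names are not reported here. Members and lists were chosen with earlier results of these data known. Each pig is 1 library, and replicate numbers are names only.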

Additional observations from a re-analysis of the deposited data

Results flagged for a closer look

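In 46 of 248 groups of values (18.5%), 1 pig stood apart from the others of its group by Dixon's criterion. Chance alone passes it in about 1 of 20 groups of normally distributed values, but CPM are skewed, so that rate is no reference for this share. Of the 46 values 45 were the highest of their group, and on the log2 scale 26 groups passed. The values of 1 pig are not independent of each other. No explanation was tested.

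High FCR replicate 2 stood apart for ADIPOQ at 46.2 CPM (others 0.704 to 12.7), FASN at 66.1 CPM (others 7.32 to 22.6) and fatty acid and triglyceride synthesis at 326 summed CPM (others 155 to 235). In high FCR replicate 3 the values that stood apart were LYVE1 at 3.16 CPM (others 0.442 to 1.68), PFKFB3 at 644 CPM (others 11.09 to 160), SOCS3 at 44.3 CPM (others 1.21 to 7.08), hypoxia response at 1041 summed CPM (others 433 to 599) and complement at 367 summed CPM (others 129 to 248). In high FCR replicate 5 the values that stood apart were CTH at 3.64 CPM (others 0.612 to 1.82), MYL2 at 6023 CPM (others 989 to 2549), WIPI1 at 78.2 CPM (others 25.3 to 48.5), slow fibre contractile genes at 18589 summed CPM (others 2993 to 8857) and cholesterol synthesis at 198 summed CPM (others 247 to 273). The cholesterol synthesis value is the lowest of its group. In high FCR replicate 7 the value that stood apart was PSME2 at 1.06 CPM (others 0.439 to 0.704). High FCR replicate 8 stood apart for COL1A1 at 9522 CPM (others 237 to 1002), collagens and matrix at 16803 summed CPM (others 1769 to 6229) and fibroblast markers at 12417 summed CPM (others 613 to 3260). In high FCR replicate 9 the values that stood apart were BHLHE40 at 282 CPM (others 49.9 to 157), autophagy at 2105 summed CPM (others 1260 to 1673), amino acid stress response at 718 summed CPM (others 320 to 440), heat shock and chaperone genes at 8015 summed CPM (others 3559 to 5699) and splicing factors and RNA helicases at 3717 summed CPM (others 2664 to 3140).

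In low FCR replicate 1 the values that stood apart were KIF2C at 2.71 CPM (others 0.703 to 1.32) and Schwann cell markers at 113 summed CPM (others 28.1 to 49). Low FCR replicate 2 stood apart for BHLHE40 at 176 CPM (others 39.2 to 89.5) and SOCS3 at 8.48 CPM (others 1.17 to 4.58). In low FCR replicate 3 the values that stood apart were ITGB7 at 2.69 CPM (others 0.969 to 1.56), PSMB8 at 16.9 CPM (others 2.94 to 8.05), leukocyte markers at 474 summed CPM (others 223 to 288) and antigen presentation and interferon genes at 688 summed CPM (others 246 to 386). Low FCR replicate 4 stood apart for P4HA1 at 44.3 CPM (others 18.2 to 30.4). In low FCR replicate 5 the values that stood apart were PFKFB3 at 1865 CPM (others 46.1 to 802), ZNF304 at 0.782 CPM (others 0.554 to 0.653) and hypoxia response at 2300 summed CPM (others 451 to 1263). Low FCR replicate 6 stood apart for ZC3H12A at 2.84 CPM (others 1.15 to 1.89), ENG at 45.4 CPM (others 21.6 to 31.9), atrophy ligases and FOXO at 2797 summed CPM (others 1280 to 1981), myogenic and satellite cell genes at 1584 summed CPM (others 1057 to 1251) and immediate-early genes at 1789 summed CPM (others 383 to 976). In low FCR replicate 7 the values that stood apart were DDX54 at 45 CPM (others 30.1 to 33.5), USP18 at 3.6 CPM (others 0.703 to 1.71), glycolysis at 184150 summed CPM (others 122430 to 146900), glycogen metabolism at 29265 summed CPM (others 19995 to 24167), fast fibre contractile genes at 97016 summed CPM (others 68296 to 80739), mTORC1 and amino acid sensing at 932 summed CPM (others 696 to 805) and erythrocyte markers at 168 summed CPM (others 20.7 to 63.8).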

How the results depend on the processing

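No gene passed an FDR of 0.1 in any of the 35 alternative settings, and the lowest adjusted p among them was 0.267, under stricter FCR limits (at least 2.17 and at most 2.03). The number of genes at an unadjusted p under 0.05, 304 as reported, was 460 with library size only, which moved the median of all genes to 0.103, 674 without a filter (19201 genes tested), 543 with RIN, age and batch (37.4% of them higher in high FCR pigs), 604 and 565 with FCR as a number over 17 and 28 Landrace pigs, and 504 under the stricter limits. The causes were not tested. Leaving out 1 pig at a time gave 194 (without low replicate 5) to 478 (without high replicate 7), with 196 without high replicate 5 and 198 without low replicate 7. MRPS11 was at 0.0035 with library size only, which is -0.10 relative to the median of all genes (-0.081 as reported), and it reversed to 0.013 without a covariate. No other gene named for its p or listed by the study changed sign. Genes named only for a high CPM, such as MYL2 and COL1A1, were not in this check. With library size only, the medians of 6 lists moved by more than the spread between pigs, to 0.050 for translation factors, 0.080 for zinc finger genes, 0.087 for antioxidant enzymes, 0.092 for vesicle trafficking, 0.10 for ubiquitin enzymes and 0.16 for SLC25 carriers. Within slaughter batch 2 the medians of vesicle trafficking and adipocyte markers were 0.031 and 0.83. Among other named genes, 1 pig moved the log2 difference by over 1.5 times for LYVE1 (to -0.54), P4HA1 (0.16), SRSF6 (0.13) and DDX54 (-0.091) without low replicate 7 and for WIPI1 (0.30) without high replicate 5. No paired analysis was possible because the labels tie no pig of 1 group to a pig of the other, and the replicate numbers used follow the accession order. With slaughter batch and RIN as terms, 0 genes passed that FDR and 372 were at an unadjusted p under 0.05 in edgeR. The median SE was 0.14, and no measured difference passed the test, that of ZNF398 (-0.32 with an SE of 0.087) included. The slopes without 1 outside library of each breed were chosen after seeing the data.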
